A study of Homo sapiens with 6 samples.

Results

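This account concerns 9 nuclear receptors of steroid, retinoid and vitamin D signalling, the genes ESR1, PGR, NR3C1, NR2F1, NR2F2, RARA, RARG, RXRA and VDR, out of 58735 genes listed for each library. They were taken by gene symbol with no threshold on a measured value, from a family picked with earlier results of these data known. RNA-seq had been run on SKOV3, an established human ovarian carcinoma line, after silencing of HJURP, which deposits the centromeric histone CENPA. The siHJURP group had received a small interfering RNA against HJURP and the NC group a negative control one. Total RNA was taken 24 h later, with 3 libraries per group. All libraries came from this single cell line, so the values describe 1 tumour's descendants. The labels do not say whether the replicates were separate cultures, so the p-values measure the spread between these libraries, which may be partly technical. In bulk RNA, fewer cells that express a gene and less RNA of it per cell cannot be told apart.

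Nuclear receptors are transcription factors whose ligand-binding domain is switched by a small lipophilic molecule and whose zinc fingers read a short DNA motif. The glucocorticoid receptor (NR3C1) and the progesterone receptor (PGR) bind motifs built on AGAACA as homodimers. Oestrogen receptor alpha (ESR1) reads AGGTCA repeats, and the retinoic acid receptors (RARA, RARG) and the vitamin D receptor (VDR) read them as heterodimers with a retinoid X receptor such as RXRA. NR2F1 and NR2F2, also called COUP-TFs, are orphan receptors that bind AGGTCA repeats in many spacings and can restrain retinoid signalling. In ovarian tissue oestrogen and progesterone receptors are clinical markers, and glucocorticoid and retinoid receptors are widely present in epithelial tumours.

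The stretch that separates these receptors by the motif they read is the P box at the base of the first zinc finger, shown here because it holds the bases that set the receptor classes apart. These 24 coding bases come from the longest coding transcript of each gene in GENCODE 29 (GRCh38), 5′ to 3′ on the coding strand. Capitals mark the codons that differ between receptor classes.

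NR3C1: tgtGGAAGCtgtaaaGTTttcttc

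PGR: tgtGGGAGCtgtaagGTCttcttt

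ESR1: tgtGAGGGCtgcaagGCCttcttc

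RARA: tgtGAGGGCtgcaagGGCttcttc

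RARG: tgtGAAGGCtgcaagGGCttcttt

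RXRA: tgcGAGGGGtgcaagGGCttcttc

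VDR: tgtGAAGGCtgcaaaGGCttcttc

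NR2F1: tgcGAGGGCtgcaaaAGTttcttc

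NR2F2: tgcGAGGGCtgcaagAGCttcttc

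RARA and ESR1 shared 23 of the 24 bases, and RARA and RARG shared 22. NR3C1 and RARA shared 17 bases, and 4 of the 9 marked ones. In the genome the stretch lay in exon 4 of the NR3C1 transcript (chr5:143314018-143314041, minus strand) and in exon 4 of ESR1 (chr6:151842748-151842771, plus strand). In RARA it was split over exons 2 and 3 (chr17:40348450-40348464 and chr17:40349784-40349792, plus strand), and in RARG it was split at the same base.

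The libraries held 17524772 to 18027065 reads in genes in siHJURP and 17116487 to 17625638 in NC. HJURP itself had 8.65 ± 0.010 FPKM in siHJURP and 29.4 ± 0.51 FPKM in NC (± values are SDs throughout, with n = 3 libraries in each group; FPKM scales reads by gene length and library size). Of 13 epithelial and ovarian carcinoma markers, 9 had at least 1 FPKM in every library, and their summed level was 789 to 853 FPKM in siHJURP and 849 to 913 FPKM in NC. EPCAM, CDH1, WT1 and MUC16 were below 1 FPKM. Of the 9, 5 fell, among them the keratins KRT8 and KRT18, and ERBB2 rose, where 20.3% of all tested genes were lower and 17.6% higher. KRT8 and KRT18 overlap each other on opposite strands, so their reads may not have been told apart. The part of these changes in the receptor values was not tested. Of 16 markers of other cell types, 2 had at least 1 FPKM in each siHJURP library and 1 in each NC library. Among them COL1A1 had 11.9 FPKM in siHJURP and 13.4 FPKM in NC. A list of 16 genes of the interferon response summed to 651, 174 and 898 FPKM in replicates 1, 2 and 3 of siHJURP and to 163 to 185 FPKM in NC, so replicates 1 and 3 stood apart there.

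SKOV3 cells carried 6 of the 9 receptor transcripts at a mean of at least 1 FPKM in at least 1 group, the level taken here as expressed. These were NR3C1, NR2F2, RARA, RXRA, RARG and NR2F1. NR2F1 reached this level only in siHJURP (mean 1.02 FPKM, and 0.955 FPKM over the 6 libraries). ESR1, with a siHJURP mean of 0.935 FPKM, lay just below this level. NR3C1 was the highest and PGR was all but missing. On the per-length FPKM scale the order in siHJURP was NR3C1, NR2F2, RXRA, RARA, RARG, NR2F1, ESR1, VDR and PGR. In NC it was NR3C1, RARA, NR2F2, RXRA, RARG, NR2F1, ESR1, VDR and PGR. Among neighbours in siHJURP, RXRA and RARA, RARA and RARG, NR2F1 and ESR1, and ESR1 and VDR overlapped in their ranges. In NC the pairs RARA and NR2F2, RXRA and RARG, and NR2F1 and ESR1 overlapped.

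**Figure D1:**
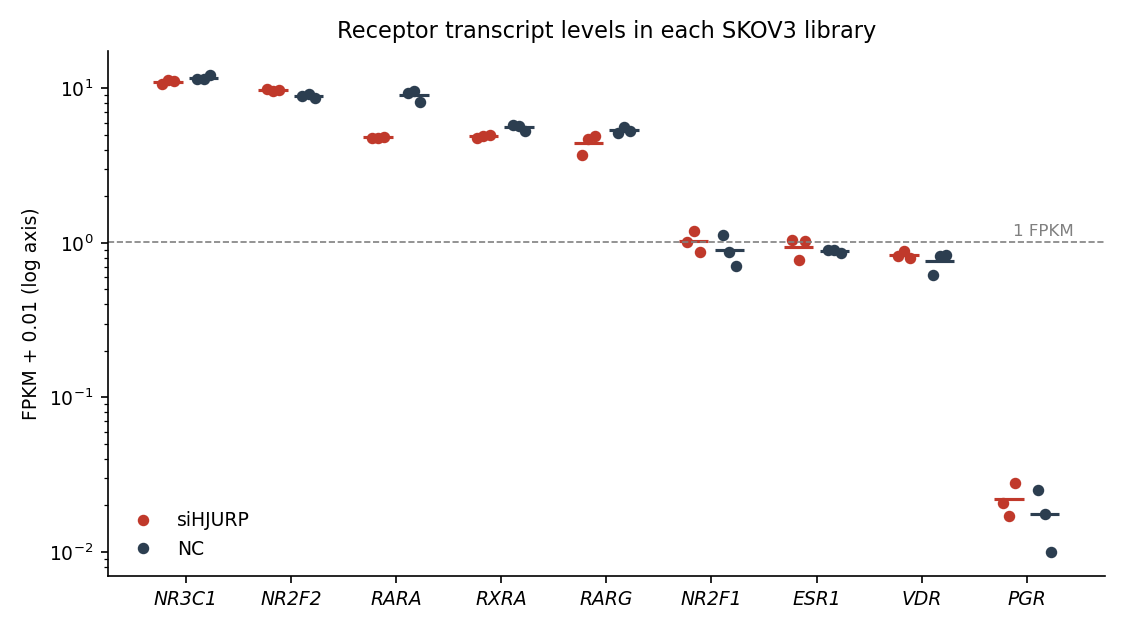
FPKM + 0.01 of the 9 receptors (log axis) in each library, siHJURP left and NC right of each gene, with points for libraries and bars for means. The 2 groups lie side by side for most receptors, while the siHJURP points of RARA lie near 4.8 FPKM and its NC points between 8.19 and 9.62 FPKM.

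Among the steroid receptors, NR3C1, which answers cortisol, had 10.6, 11.4 and 11.1 FPKM in the 3 siHJURP libraries, against 11.4, 11.4 and 12.3 FPKM in NC. These values rest on 1765 to 1928 reads per library, and the 2 groups lay close together without overlapping. NR3C1 did not pass the test (log2 fold change -0.08 on the log2(FPKM + 1) scale, 95% interval -0.19 to 0.03, limma adjusted p = 0.219). Its level was above that of 79.0% of the 19951 protein-coding genes.

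ESR1, the receptor for oestradiol, had 1.03, 0.76 and 1.02 FPKM in siHJURP, against 0.89, 0.88 and 0.85 FPKM in NC. It is a long gene, so this low level still amounted to 194 to 258 reads in siHJURP and 198 to 213 reads in NC. The siHJURP values lay on both sides of the NC values. Its mean over the 6 libraries was below the 1 FPKM filter of the test, and without the filter its log2 fold change was 0.04 (limma adjusted p = 0.844, 95% interval -0.22 to 0.30). ESR1 overlaps SYNE1 on the other strand, whose reads may not have been told apart from its own.

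PGR, a classical target of ESR1, had 3, 2 and 5 reads in siHJURP and 4, 2 and 0 reads in NC. This corresponds to 0.007 to 0.018 FPKM in siHJURP and at most 0.015 FPKM in NC, at or near the 3 reads taken as the floor, so no fold change is given. Outside the set, ESR2, the oestrogen receptor beta, was low too, with 35 to 56 reads in siHJURP and 23 to 40 in NC.

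Of the 9 receptors, 5 passed the filter on low values and could be tested, and 2 of these, RARA and RXRA, were called lower in siHJURP, where 20.3% of all 13365 tested genes were lower and 37.9% were called in either direction. With 5 tested receptors this share is not read as a result about the set.

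RARA, the retinoic acid receptor alpha, lies on chromosome 17 (40309192 to 40357643, plus strand, hg38; ENSG00000131759). Its level was 4.79, 4.77 and 4.86 FPKM in the 3 siHJURP libraries, against 9.33, 9.62 and 8.19 FPKM in NC. The read numbers were 411, 416 and 414 in siHJURP, against 756, 792 and 653 in NC. The 3 siHJURP libraries sat within 0.1 FPKM of each other and well below the lowest NC library. In replicate 2 the summed level of the interferon genes (174 FPKM) lay within the NC range (163 to 185 FPKM). Single interferon genes, BST2 among them, were still above every NC library there. The part of the interferon response in the RARA value was not tested. The mean was 4.81 ± 0.047 FPKM in siHJURP and 9.05 ± 0.76 FPKM in NC, 46.9% lower (log2 fold change -0.79, SE 0.062, limma adjusted p = 0.000163). By exact two-sided permutation p was 0.1, the lowest value possible with 3 libraries a group. Of all tested genes, 2.14% had a lower log2 fold change. The call was made in each of the 18 alternatives, that without siHJURP replicates 1 and 3 among them, with a log2 fold change of -0.91 to -0.74.

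RARG, the retinoic acid receptor gamma, had 3.68, 4.70 and 4.91 FPKM in siHJURP, against 5.10, 5.60 and 5.32 FPKM in NC. Replicate 1 was the lowest siHJURP library, and the groups did not overlap, as was the case for 52.2% of all tested genes. RARG did not pass the test (log2 fold change -0.23, SE 0.093, 95% interval -0.45 to -0.01, limma adjusted p = 0.0917). With voom on the whole reads it did (limma adjusted p = 0.0308), and without siHJURP replicate 1 its log2 fold change was -0.13. RARB, the third retinoic acid receptor and itself a classical retinoid target, had 28 to 38 reads in siHJURP and 15 to 31 in NC. It overlaps TOP2B on the other strand.

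Added together, RARA, RARB and RARG came to 9.72 ± 0.73 FPKM in siHJURP and 14.8 ± 0.83 FPKM in NC. RARA made up 53.9%, 47.6% and 47.4% of that sum in siHJURP replicates 1, 2 and 3, against 63.6%, 61.4% and 58.5% in NC. The ratio of RARA to RARG within a library, which no scaling between libraries can move, was 1.30, 1.02 and 0.99 in siHJURP, against 1.83, 1.72 and 1.54 in NC. The 2 groups of ratios did not overlap (difference of the log2 ratio -0.63, exact two-sided permutation p = 0.1, the smallest possible). The ratio was chosen after the values had been seen.

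RXRA, the shared dimer partner of RARA, RARG and VDR, had 4.79, 4.88 and 4.99 FPKM in siHJURP, against 5.78, 5.67 and 5.31 FPKM in NC. It was lower by a small margin (log2 fold change -0.16, SE 0.048, limma adjusted p = 0.037), on 964 to 997 reads in siHJURP and 993 to 1097 in NC. The call was lost with TPM scaling (adjusted p = 0.131), with total-read scaling (0.104) and without the filter on low values (0.0807). It was also lost without siHJURP replicate 1 (0.113), 2 (0.0829) or 3 (0.0697) and without NC replicate 1 (0.108) or 2 (0.0798), and with the replicate block (0.0856). Its paralogue RXRB, outside the set, moved the other way, with 19.7, 19.4 and 19.6 FPKM in siHJURP, against 12.3, 13.5 and 12.5 FPKM in NC (log2 fold change 0.58, limma adjusted p = 0.000145).

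RXRG had 0 reads in every library, so the RXR transcripts were RXRA and RXRB. Their sum was 24.5 ± 0.18 FPKM in siHJURP and 18.4 ± 0.72 FPKM in NC. RXRA over RXRB was 0.243 to 0.254 in siHJURP and 0.419 to 0.470 in NC, without overlap (difference of the log2 ratio -0.81, exact two-sided permutation p = 0.1, the smallest possible). This ratio too was chosen after the values had been seen. It restates the changes of RXRA and RXRB and is no separate test. RXRB overlaps SLC39A7, a zinc transporter on the other strand that was itself higher (60.1 FPKM in siHJURP and 50.0 FPKM in NC, log2 fold change 0.26). Whether the counting used strand is not given in the sources used here, so the part of SLC39A7 reads in the RXRB value was not tested.

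**Figure D2:**
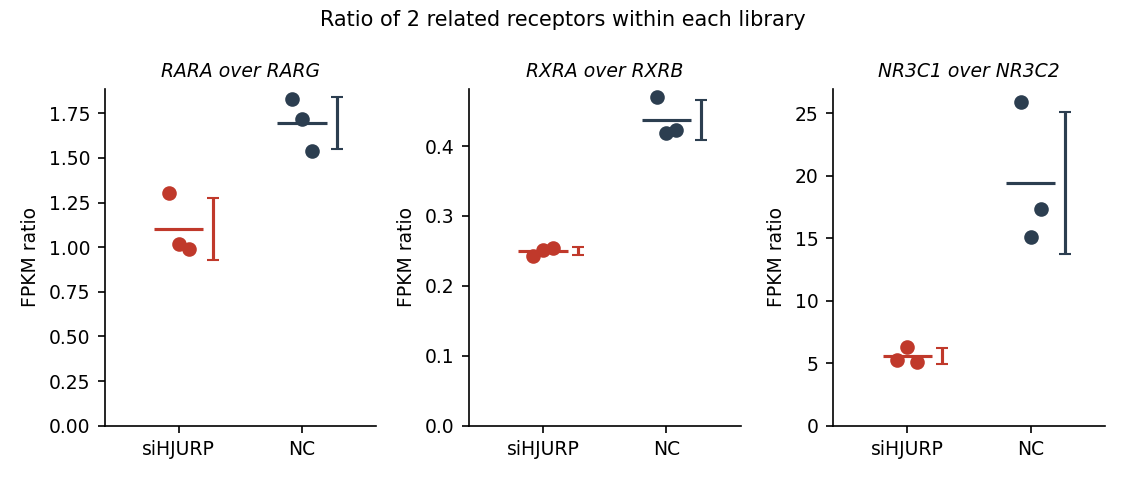
Ratio of FPKM between related receptors within each library, siHJURP left and NC right, with points for libraries, bars for means and error bars for the SD. In each panel the siHJURP libraries lie below all NC libraries, at 0.99 to 1.30 against 1.54 to 1.83 for RARA over RARG.

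VDR, the receptor for calcitriol, had 0.81, 0.87 and 0.78 FPKM in siHJURP, against 0.61, 0.81 and 0.83 FPKM in NC, on 59 to 91 reads per library. The groups overlapped, and without the filter on low values the log2 fold change was 0.06 (limma adjusted p = 0.773). In that fit of 34991 genes, 10.9% were called.

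NR2F2, a COUP-TF known for its role in vessels and in the mesenchyme of reproductive organs, had 9.96, 9.63 and 9.77 FPKM in siHJURP, against 8.97, 9.24 and 8.63 FPKM in NC. Every siHJURP library lay above every NC library, by a small margin. It did not pass the test (log2 fold change 0.12, SE 0.041, limma adjusted p = 0.0629), but passed with TPM (0.0171), quantile (0.021) and total-read scaling (0.0191). Its close relative NR2F1 had 1.01, 1.18 and 0.86 FPKM in siHJURP, against 1.11, 0.87 and 0.70 FPKM in NC, on 51 to 94 reads. These groups overlapped (log2 fold change 0.10 without the filter, limma adjusted p = 0.703).

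The rest of the nuclear receptor family gave the setting for these values. Of 39 other human nuclear receptors, 17 passed the filter, and 5 of these rose and 3 fell, against 17.6% of all tested genes higher and 20.3% lower. Their median log2 fold change was 0.02, against -0.01 for all tested genes. With siHJURP replicate 3 or NC replicate 3 left out, 5 of the 17 were called.

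The lowest was NR1D1 (REV-ERB alpha), a haem-binding repressor of the circadian clock. It fell to 16.6, 17.5 and 16.5 FPKM in siHJURP, against 38.4, 36.4 and 38.6 FPKM in NC (log2 fold change -1.12, limma adjusted p = 1.57e-05). NR1D1 overlaps the end of THRA, the thyroid hormone receptor alpha, on the other strand. THRA had 11.6 FPKM in siHJURP and 11.2 FPKM in NC.

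NR3C2, the mineralocorticoid receptor and the closest paralogue of NR3C1, rose to 2.02, 1.82 and 2.18 FPKM in siHJURP, against 0.44, 0.76 and 0.71 FPKM in NC. This rests on 221 to 259 reads in siHJURP and 50 to 87 in NC. The ratio of the mean FPKM was 3.15, and the log2 fold change was 0.88 (limma adjusted p = 0.00137) with a pseudocount of 1, 1.54 with a pseudocount of 0.1 and 1.68 with voom. NR3C1 over NR3C2 was 5.10 to 6.28 in siHJURP and 15.1 to 25.9 in NC, without overlap (exact two-sided permutation p = 0.1, the smallest possible). This ratio was also chosen after the values had been seen. It restates the rise of NR3C2 and is no separate test.

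NR6A1, the germ cell nuclear factor, and NR1H3, the oxysterol receptor LXR alpha, rose by 0.40 and 0.37 on the log2 scale (limma adjusted p = 0.0041 and 0.0055). Without siHJURP replicates 1 and 3, the log2 fold changes of NR3C2, NR6A1 and NR1H3 were 0.79, 0.33 and 0.39, close to those with all libraries, while with a single siHJURP library left none of the 3 passed (adjusted p = 0.0662, 0.118 and 0.0767). NR6A1 and NR1H3 overlap tested genes on the other strand. PPARA, NR1D2 and ESRRA were called by a narrow margin (log2 fold changes 0.29, -0.18 and -0.19). PPARA was lost without siHJURP replicate 2 or 3 or any NC replicate (limma adjusted p = 0.0677 to 0.102), and NR1D2 without siHJURP replicate 1 or 3 or NC replicate 3 (0.0592 to 0.0669). ESRRA was lost without any siHJURP replicate or NC replicate 1 or 3 (0.0514 to 0.116). The replicate block also ended the calls of PPARA (0.0669) and ESRRA (0.0708). With TPM and total-read scaling NR1D2 (limma adjusted p = 0.0667 and 0.0576) and ESRRA (0.152 and 0.105) were lost. ESRRA was also lost with quantile scaling (0.0815), without a trend (0.0563) and without the filter (0.101). PPARA too was lost without the filter (0.0955). By the mean over all 6 libraries, the highest of these others were NR1D1, NR2F6 and NR1H2, while in siHJURP alone they were NR2F6, RXRB and NR1H2. NR2F6 had 21.9 FPKM in siHJURP and 23.4 FPKM in NC. NR2F6 and NR1H2 did not pass the test (log2 fold changes -0.09 and 0.05).

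**Figure D3:**
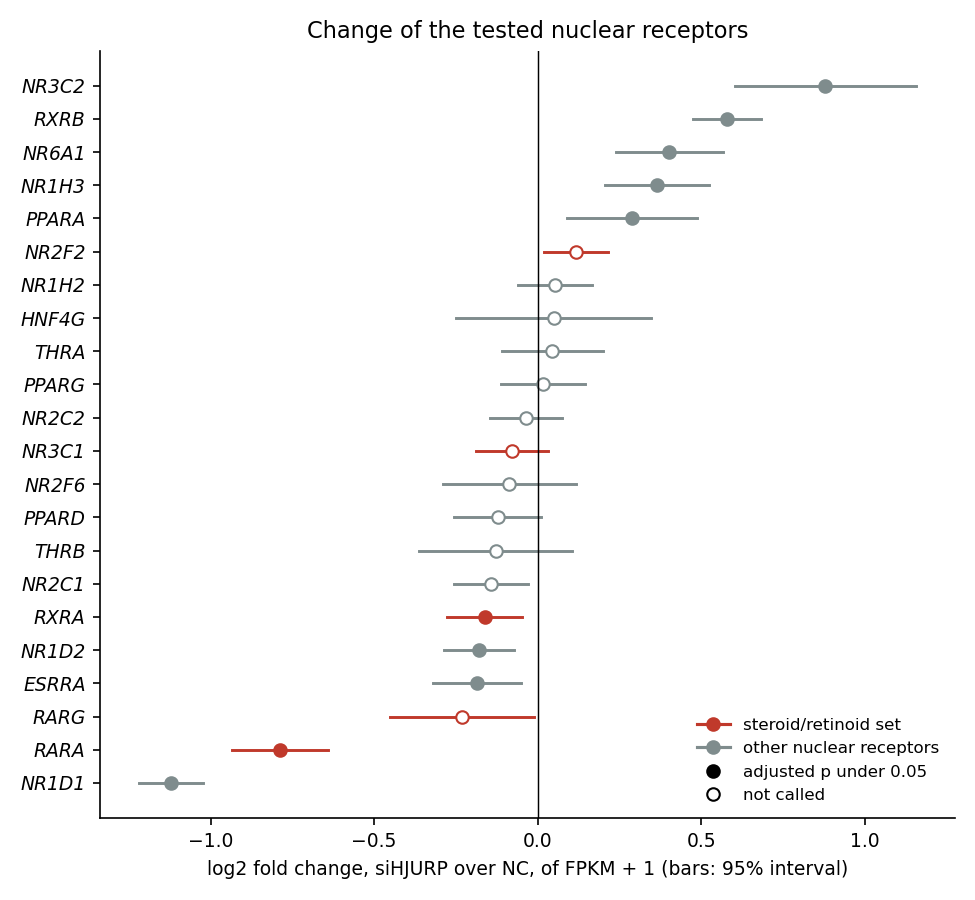
Log2 fold change (siHJURP over NC, of FPKM + 1) of the 22 nuclear receptors that passed the filter, with 95% intervals from limma. Red marks the steroid and retinoid set, grey the other receptors, and filled points an adjusted p under 0.05. RARA (-0.79) lies next to NR1D1 (-1.12) at the low end, and NR3C2 (0.88) and RXRB (0.58) lie at the high end.

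RARA and NR1D1 lie near each other on chromosome 17, with gene starts 216 kb apart. The tested genes MSL1, CASC3, RAPGEFL1, WIPF2 and CDC6 lie between them. The 10 tested genes next to RARA on each side, in order of gene start, reached 328 kb to the left and 1273 kb to the right. Of these 20 genes, 10 were lower, 1 was higher and 9 missed the threshold. Among all tested genes 20.3% were lower and 17.6% higher. The median of the 20 was -0.24 on the log2 scale. Those lower included KRT15, KRT19 and KRT14, which start 1205 to 1273 kb from the start of RARA, and RF00019, which lies within TOP2A. CDC6, the replication licensing factor that ends just before RARA, fell by 0.23 on the log2 scale (18.6 FPKM in siHJURP and 22.0 FPKM in NC). TOP2A, topoisomerase II alpha, on the other side fell by 0.20 (100.7 FPKM in siHJURP and 116 FPKM in NC). THRA (log2 fold change 0.05) lies beside NR1D1, and MSL1, which rose by 0.23, lies between NR1D1 and RARA. These neighbours were looked at after the values of RARA were known.

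Over the 6 libraries, the tested genes whose deviation from the NC mean was most like that of RARA were CLP1, CIART and FAM214B. Their root mean square differences from RARA were 0.0302, 0.0422 and 0.0453 on the log2 scale. Their means were 4.37, 2.81 and 5.31 FPKM in siHJURP and 8.13, 5.56 and 9.88 FPKM in NC. For RXRA they were GRB10, FTSJ1 and ARPC5, with differences of 0.0143 to 0.0208.

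Genes that work with the receptors were read from lists by role. Of 28 coactivators and corepressors, 25 were tested, of which 4 rose, 4 fell and 17 did not pass. The 8 called are near the 37.9% called among all tested genes. The median was -0.03, but it was above 0 with TPM, with quantile and with total-read scaling and without NC replicate 1. NCOA6, a coactivator that bridges receptors to histone methyltransferases, fell to 4.27 ± 0.20 FPKM in siHJURP, against 10.9 ± 0.92 FPKM in NC (log2 fold change -1.18, limma adjusted p = 4.71e-05). The acetyltransferase EP300 and the corepressor subunit TBL1XR1 fell by 0.40 and 0.37, while PNRC2, NCOA4, the arginine methyltransferase CARM1 and SAFB rose by 0.30, 0.21, 0.19 and 0.14. The SAFB call was lost without siHJURP replicate 1 (adjusted p = 0.0564) or NC replicate 3 (0.0514). NCOA1 also fell, to 5.88 FPKM in siHJURP, against 7.12 FPKM in NC (log2 fold change -0.24, limma adjusted p = 0.0141). It was called in 15 of the 18 alternatives. NCOR1, NCOA2, NCOA3 and MED1, well known partners of the retinoid and steroid receptors, did not pass.

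Of 17 chaperones that hold steroid receptors ready for ligand, all were tested, and 6 rose and 1 fell, with a median of 0.11. The 7 called are near the background of 37.9%, with 17.6% higher and 20.3% lower. HSP90AA1, the inducible HSP90, had 634 ± 37 FPKM in siHJURP and 481 ± 8.4 FPKM in NC (log2 fold change 0.40, limma adjusted p = 0.00112). NUDC and AHSA1, which work with HSP90, rose by 0.34 and 0.25, and DNAJB1 fell by 0.19. Without siHJURP replicate 1 only 4 were called, and 11 were with quantile scaling.

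Of 25 genes of retinoid uptake and metabolism, 10 passed the filter, and 3 of these fell and 1 rose, with a median of -0.12. This too is near the 37.9% called among all tested genes, and without the filter the median over 24 genes was -0.01. RDH10, which makes retinal from retinol, fell to 3.40 ± 0.047 FPKM in siHJURP, against 4.84 ± 0.43 FPKM in NC (log2 fold change -0.41, limma adjusted p = 0.00289). FABP5, a carrier that can bring retinoic acid to the nucleus, fell by 0.27. ALDH1A3 fell too, with a log2 fold change of -0.74 to -0.33 over the alternatives, and was called in 8 of 17 of them. RETSAT, a retinol saturase, was higher by 0.16, near the threshold (adjusted p = 0.0485), and was not called without any one of the siHJURP replicates or without NC replicate 2 or 3 (0.0693 to 0.15). STRA6, LRAT and the retinoic acid hydroxylase CYP26A1 had group means under 0.1 FPKM. The count of called genes was 2 without siHJURP replicate 2 or 3 or NC replicate 2 or 3, and the median was 0.12 with the filter at 5 FPKM.

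Of 38 genes of steroid and vitamin D metabolism, 19 were tested, with 8 higher, 2 lower and a median of 0.15, where 17.6% of all tested genes were higher and 20.3% lower. Without the filter the median over 37 genes was 0.01, with 5 higher and 2 lower. In that fit 1681 of all 34991 genes were higher and 2126 lower. CYP1B1, which hydroxylates oestrogens, rose to 49.4 ± 2.9 FPKM in siHJURP, against 23.8 ± 1.8 FPKM in NC (log2 fold change 1.02, limma adjusted p = 7.63e-05). CYP2R1, the vitamin D 25-hydroxylase, rose to 4.14 ± 0.29 FPKM in siHJURP, against 2.31 ± 0.39 FPKM in NC (log2 fold change 0.64). PGRMC2 rose by 0.33, and its relative PGRMC1 and the steroid sulfatase STS fell by 0.18 and 0.37. CYP19A1, the aromatase, and CYP17A1 had at most 1 read in any library. Without siHJURP replicate 3 or NC replicate 3, 6 were called.

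Genes known to answer the ligands of these receptors were mostly lower where they passed the test. These lists were chosen with earlier results of these data known. They were not split by whether the ligand raises or lowers a gene. Whether the activity of any receptor changed was not tested. Of 30 glucocorticoid response genes, 22 were tested, and 15 fell and 0 rose, with a median of -0.33, against -0.01 for all tested genes and a background of 20.3% lower. Without the filter, 14 of 29 were lower, with a median of -0.25, where 2126 of all 34991 genes were lower. ERRFI1, an inhibitor of the EGF receptor, fell to 14.1 ± 0.38 FPKM in siHJURP, against 30.6 ± 2.0 FPKM in NC (log2 fold change -1.06, limma adjusted p = 3.12e-05). DUSP1, a MAP kinase phosphatase, fell by 0.65, GADD45B by 0.85 and the lipase inhibitor ANGPTL4 by 1.43. TSC22D3 (GILZ) and PER1, which carry well known glucocorticoid elements, fell by 0.36 and 0.55, while FKBP5 had 2.68 ± 0.18 FPKM in siHJURP and 2.38 ± 0.14 FPKM in NC and did not pass (adjusted p = 0.209).

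Of 25 retinoic acid response genes, 12 were tested, with 6 lower, 1 higher and a median of -0.35, against a background of 20.3% lower and 17.6% higher. Without the filter, 4 of 23 were lower, where 2126 of all 34991 genes were, and the median was -0.06. CCND1, cyclin D1, fell by 1.51 on the log2 scale, and TNFAIP2 fell to 7.46 ± 0.15 FPKM in siHJURP, against 12.7 ± 0.66 FPKM in NC (log2 fold change -0.69). TGM2, transglutaminase 2, fell to 8.95 ± 1.5 FPKM in siHJURP, against 18.9 ± 1.35 FPKM in NC (log2 fold change -1.01, limma adjusted p = 0.000565). MEIS2, a homeodomain partner of HOX proteins, rose by 0.41. The most direct retinoic acid targets of the list, RARB, CYP26A1, CYP26B1 and DHRS3, had group means below 0.5 FPKM and were not tested.

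Of 22 vitamin D response genes, 10 were tested, with 6 lower, 1 higher and a median of -0.26, beside the same background of 20.3% lower. Over the 19 genes fitted without the filter 4 were lower, where 2126 of all 34991 genes were, and the median was -0.05. G0S2 fell by 1.83 on the log2 scale, CDKN1A (p21) by 1.55 and TXNIP, the thioredoxin inhibitor, by 0.81 (limma adjusted p = 1.71e-05 for TXNIP). IGFBP3, an IGF-binding protein, rose to 70.6 ± 0.30 FPKM in siHJURP, against 50.2 ± 4.1 FPKM in NC (log2 fold change 0.49). CYP24A1, the main calcitriol target, had means of 0.513 FPKM in siHJURP and 0.464 FPKM in NC and was not tested.

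Of 27 oestrogen response genes, 16 were tested, with 8 lower, 3 higher and a median of -0.16, against a background of 20.3% lower and 17.6% higher. Without the filter the median over 25 genes was -0.06. RARA is itself on this list, and CCND1 is shared with the retinoic acid list. ADCY9, an adenylate cyclase, rose to 8.74 ± 0.47 FPKM in siHJURP, against 5.34 ± 0.21 FPKM in NC (log2 fold change 0.62, limma adjusted p = 0.000232), and SIAH2, a ubiquitin ligase, and CA12, a carbonic anhydrase, rose by 0.31 and 0.38. MYC fell by 0.45 and SLC9A3R1 (NHERF1) by 0.32. GREB1, TFF1 and PGR, the classical ESR1 targets of breast cancer cells, had group means below 0.1 FPKM.

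Of the genes named from these lists, NCOA6, EP300, CARM1, SAFB, NCOR1, NCOA3, MED1, HSP90AA1, DNAJB1, AHSA1 and NUDC overlap another tested gene. So do RDH10, RETSAT, CYP17A1, CYP1B1, ANGPTL4, TGM2 and CCND1, and NR1D2, ESRRA, NR1H2 and ESR2 among the receptors. Reads of such pairs may not have been told apart.

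**Figure D4:**
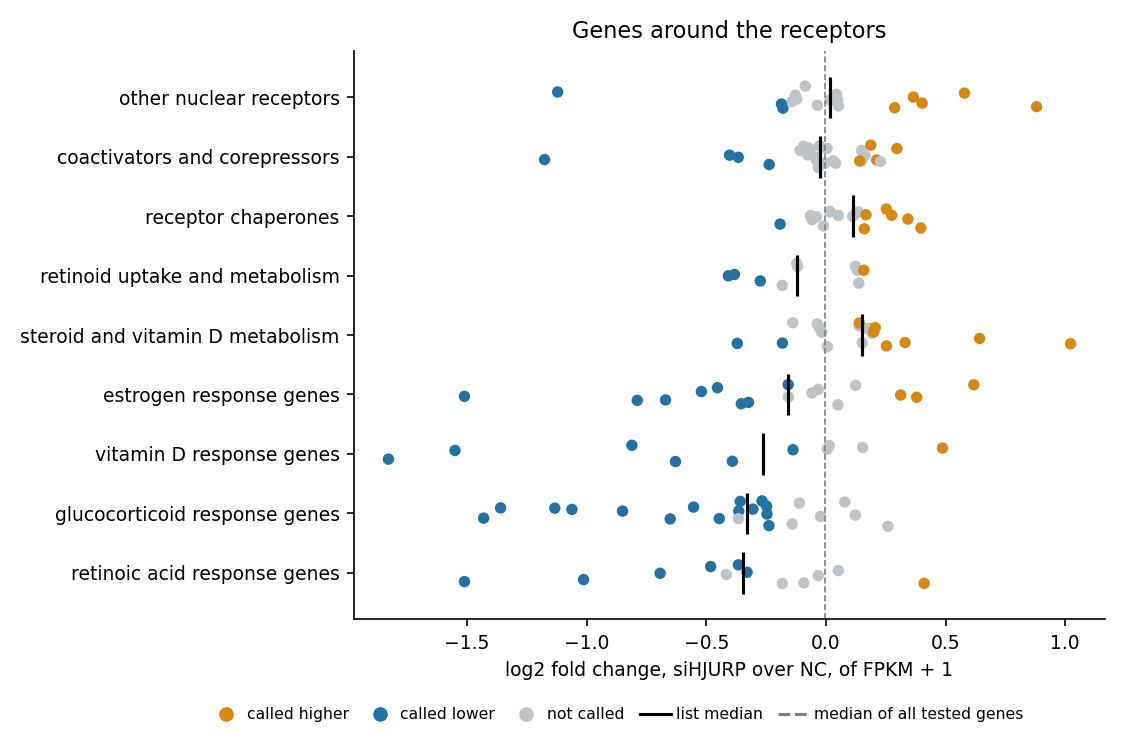
Log2 fold change (siHJURP over NC, of FPKM + 1) of each tested gene in 9 lists of genes around the receptors, with orange for higher, blue for lower and grey for not called. Black bars mark list medians and the dashed line the median of all tested genes. The medians of the glucocorticoid (-0.33) and retinoic acid (-0.35) response lists lie furthest to the left, and that of steroid and vitamin D metabolism (0.15) lies furthest to the right.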

How the data were processed

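RNA-seq of SKOV3 cells was analysed in 6 libraries, 3 siHJURP and 3 NC. The authors' deposited values are FPKM, in 1 table per library, and the tools listed, per the submitters' processing notes, are featureCounts 1.5.0-p3 and HISAT2 2.0.5, with build hg38. How the library size was scaled is not given in the sources used here. FPKM multiplied by gene length was divided by the worth of 1 read, estimated in each library from its lowest non-zero values. This gave whole reads in 100% of non-zero values (tolerance 0.01 reads). The library size behind the FPKM was 1.02 to 1.03 times the sum of reads in siHJURP and 0.985 to 0.989 times in NC. Gene types, overlaps and sequences came from GENCODE 29, whose gene starts and ends matched all 58735 genes.

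Genes with a mean of at least 1 FPKM were put on a log2(FPKM + 1) scale and tested in R 4.3.3 by limma 3.58.1 (intensity trend, Benjamini-Hochberg adjustment over 13365 genes, threshold 0.05, two-sided), tested on simulated data first. Single values were compared by exact permutation tests in scipy 1.17.1. Same-numbered libraries did not deviate together (correlations -0.01 to 0.02), so no pairing was used.

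The receptors and the lists were chosen with earlier results of these data known. By rule, up to 4 called genes per list were named by adjusted p, with any called gene moving against the list median, all 9 receptors, other nuclear receptors by adjusted p or level, and the genes most like RARA and RXRA. Other names, such as EP300, TSC22D3, PER1, FKBP5 and the genes given as low or not passing, were chosen after their values were seen. The alternatives were 2 pseudocounts, 2 filters, 4 scalings, limma without a trend, voom, a replicate block and left-out libraries. Those for the receptor ratios were chosen after seeing the data.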

Additional observations from a re-analysis of the deposited data

How the results depend on the processing

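RARA, RXRB and NR1D1 were called in all 18 alternatives, and none of the 89 genes followed through the alternatives turned its direction in one. Apart from the tested receptors of the set and HJURP, these were list genes already called with the main settings. A turn was therefore unlikely from the start, and its absence is no separate test. The number of called genes, 5068, was 3719 to 4724 with 1 library left out and 1844 without siHJURP replicates 1 and 3, where the single siHJURP library is assumed to vary like NC. Of all calls, 53.5% were lower (2355 higher, 2713 lower), against 40.5% with TPM (3155 and 2144) and 41.5% with total-read scaling (3102 and 2198).

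Called receptors of the set, 2, became 1 without the filter, with the replicate block and without siHJURP replicates 1 and 3, and 1 to 2 with 1 library left out. They were 3 with voom (3 lower) and with quantile scaling (1 higher, 2 lower), and 1 higher and 1 lower with TPM and total-read scaling. Without siHJURP replicates 1 and 3 the lists had 2 called other nuclear receptors, 1 coregulator, 2 chaperones, 0 genes of retinoid metabolism, 1 of steroid metabolism and 8 glucocorticoid response genes. With the filter at 5 FPKM there were 5 of 11 tested other nuclear receptors and 2 of 5 tested genes of retinoid metabolism. In that fit 3855 of all 7635 tested genes were called. Without a filter 2 of 24 genes of retinoid metabolism were called, where 3807 of all 34991 genes were. With quantile scaling 11 chaperones were called. With 1 library left out the counts were 5 to 7 other nuclear receptors, 4 to 7 chaperones, 2 to 3 genes of retinoid metabolism and 6 to 9 of steroid metabolism. The causes were not tested. The replicate block gave 4527 called genes. VDR rested on 59 to 91 reads per library and NR2F1 on 51 to 94, which limits what could be detected for them, and PGR was at or near the floor.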
